A study of Homo sapiens with 4 samples.

Results

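The genes described are 40 genes of the mitotic spindle and of cell division, out of 25693 human genes in the count table. They are 12 kinesin motors, 5 genes of the Aurora kinases and the chromosomal passenger complex, 12 genes of spindle assembly, 5 of cytokinesis, 4 of anaphase and mitotic exit, and 2 further proliferation genes, GTSE1 and MKI67. They were taken by gene symbol, and all 40 matched 1 identifier each and passed the filter on low counts. Expression was followed in NGP, an established human neuroblastoma line with amplified MYCN, by droplet sequencing of single cells on the ddSeq instrument. All cells had first been synchronised by serum starvation. For the next 24 h they received Nutlin-3, which frees p53 from its inhibitor MDM2, or ethanol, its solvent. Each treatment gave 2 libraries, with ERCC spike-in RNA diluted 1000-fold in one and 10000-fold in the other. Nothing in the labels says whether these libraries came from separate cultures.

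Kinesins are motor proteins that use ATP to move along microtubules or to shorten them. In mitosis they push the spindle poles apart, move chromosomes and build the midzone between the separating chromatids. Aurora A acts at the poles and is activated by TPX2, whereas Aurora B works with INCENP, survivin (BIRC5) and borealin (CDCA8) at centromeres and later at the midzone. Genes of this kind are transcribed in G2 and mitosis under control of the MuvB complexes. Activation of p53 is known to repress many of them through p21 and the DREAM complex.

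The table held 250 columns per treatment, with 1342134 human counts for ethanol and 1301232 for Nutlin-3. A column's name gave its treatment but no library, so each treatment was 1 pool. There was no replicate, no test was possible and no p-value is given. The treatments shared 219 of their 250 names. Among these were the names of all 113 columns with a total above 4000 counts, called large columns here, and of 106 of the 137 others, called small columns. Among nonzero values 91.8% were equal to 1 in the large ethanol columns and 92.5% in the large Nutlin-3 columns. For the 40 genes, counts per large column with the gene ran from 1.02 to 1.85 under ethanol and from 1.02 to 1.48 under Nutlin-3, in both highest for UBE2C. The 281 distinct names, of 12 bases each, had 97 distinct endings of 6 bases, the commonest in 34 names. The sources do not say whether a name is a complete cell barcode or whether molecular tags were collapsed, so a column may hold more than 1 cell and is not called one here. Markers of the line were present, with counts of 104 to 1140 under ethanol and 131 to 877 under Nutlin-3 for 10 adrenergic neuroblastoma genes. Summed counts were 113 and 109 for the 5 fibroblast markers with a row, 20 and 35 for 3 epithelial markers, 24 and 49 for the immune marker LYZ, and 1 and 2 for the endothelial marker VWF. CDKN1A, the p53 target that encodes p21, was higher under the drug, at 188 counts against 70.

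The question was how far the transcripts of the division machinery differed between Nutlin-3 and ethanol, and whether motors, kinases, spindle proteins and cytokinesis proteins differed to a like degree. The 40 genes together held 6508 counts in the ethanol pool and 5304 in the Nutlin-3 pool. As a share of human counts this was 0.485% for ethanol (0.473 to 0.497, an exact binomial interval at 95%) and 0.408% for Nutlin-3 (0.397 to 0.419). These and all other intervals cover counting error only and hold no variation between cultures. They treat counts as independent draws. In the large ethanol columns 80.4% of the values of the 40 genes were equal to 1 and 2.85% were 0. The intervals may therefore not fit the counting error of these sums. In pooled sums, fewer cells that express a gene and fewer transcripts per cell cannot be told apart. In the 31 columns per treatment whose names occurred in only 1 treatment, the share was 0.783% of 19805 counts under ethanol (0.665 to 0.915) and 0.585% of 23060 under Nutlin-3 (0.491 to 0.693).

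**Figure D1:**
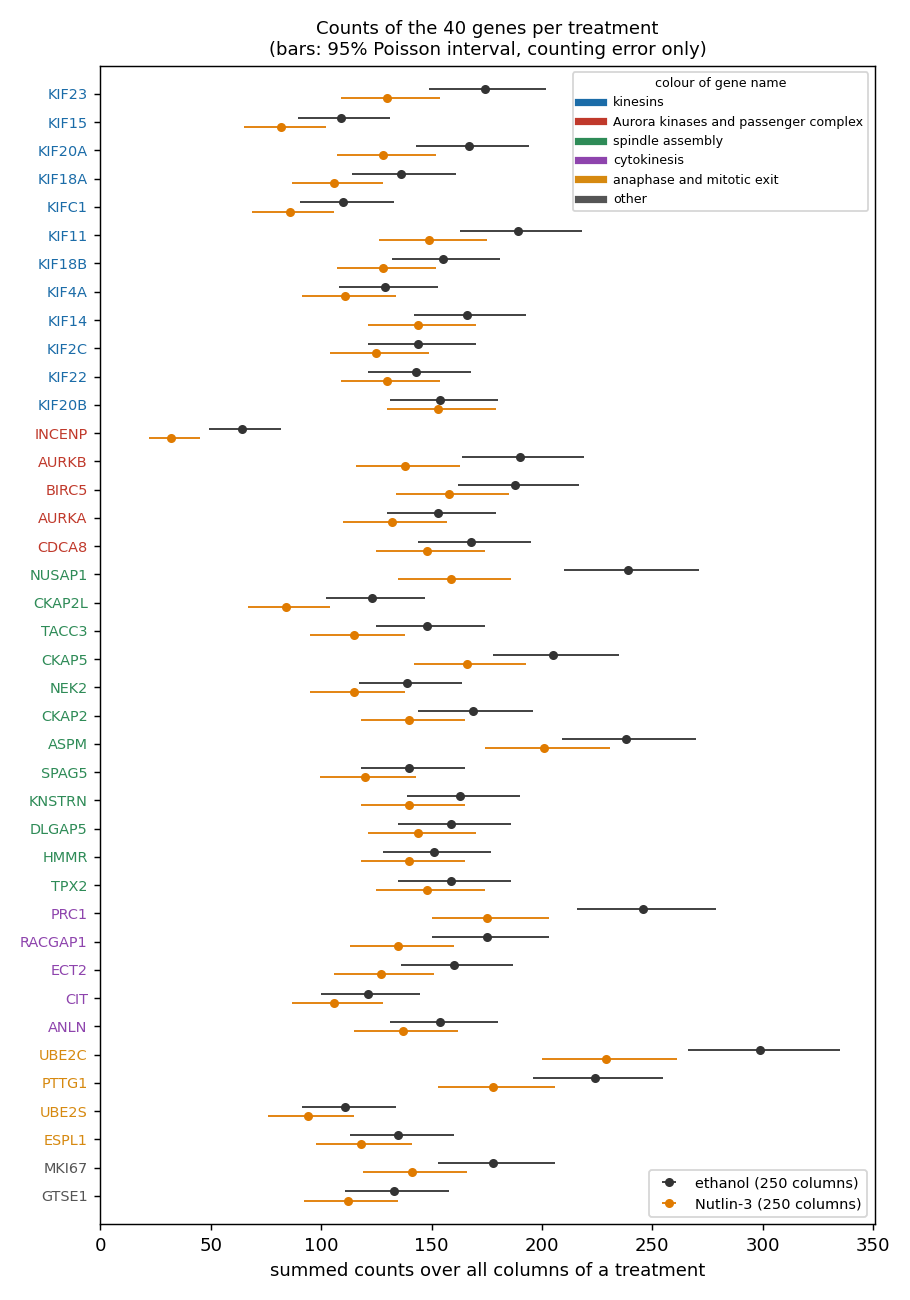
Summed counts of each of the 40 genes over the 250 ethanol columns (black) and the 250 Nutlin-3 columns (orange), with 95% Poisson intervals. Gene names are coloured by role. The orange point lies to the left of the black one for all 40 genes, most closely for KIF20B with 153 against 154 counts.

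All 40 genes had fewer counts under Nutlin-3. After scaling to library size with TMM factors and adding 0.5 counts to each sum, the log2 ratio of Nutlin-3 to ethanol (the log2 fold change of the plots) was below 0 for 39 of the 40 genes and above it for 1, KIF20B. Of all 14830 genes that passed the filter, 50.3% were below 0. The median over the 40 genes was -0.23, with an order-statistic interval over genes of -0.30 to -0.17, and that over all genes tested was 0.00. A gene was called lower or higher past a log2 ratio of 0.32 in size. By this rule 10 of the 40 genes were lower, as were 12.4% of all genes tested, and 0 were higher, against 14.9% of all genes. At 1.5-fold, 1 of the 40 genes was lower, against 5.85%. Genes with few counts scatter more, so the 40 genes were also read beside the 9946 genes with a summed count in their own range of 96 to 528. Of those, 52.4% were below 0, 5.57% were called lower and 5.69% higher. Their central 95% ran from -0.46 to 0.46, and 3 of the 40 genes, INCENP, NUSAP1 and CKAP2L, lay below it. The differences were thus small for single genes and nearly all of 1 sign. Intervals lay wholly below 0 for 7 of the 40 genes, KIF23, AURKB, INCENP, NUSAP1, CKAP2L, PRC1 and UBE2C, and in the large columns alone for 2, INCENP and CKAP2L. No share of all genes with such an interval stands beside these numbers, so no excess is read from them.

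**Figure D2:**
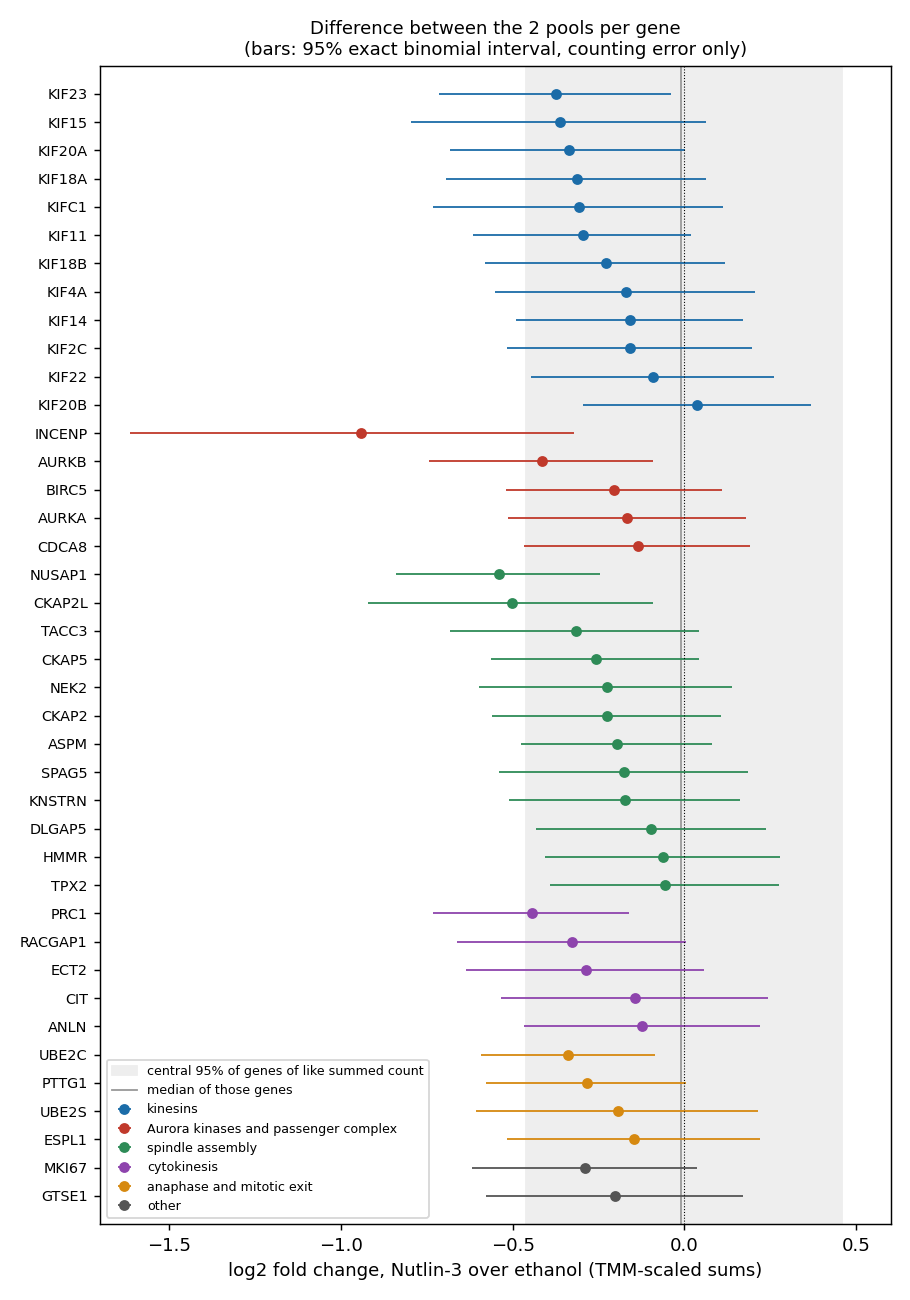
Log2 ratio of Nutlin-3 to ethanol for each gene, with its 95% exact binomial interval, ordered by role. The grey band is the central 95% of the 9946 genes with a summed count of 96 to 528, from -0.46 to 0.46, and INCENP, NUSAP1 and CKAP2L lie to its left.

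Over all columns the medians of the roles were -0.26 for the kinesins (range -0.37 to 0.04), -0.20 for the Aurora kinases and passenger complex (-0.94 to -0.14), -0.21 for spindle assembly (-0.54 to -0.06), -0.29 for cytokinesis (-0.44 to -0.12) and -0.24 for anaphase and mitotic exit (-0.34 to -0.15). The ranges overlapped throughout, and differences between roles were not tested. The medians lay farther apart in the small columns, from -0.43 for mitotic exit to -0.86 for cytokinesis. With columns thinned to 700 counts they were -0.70 for cytokinesis, -0.66 for the Aurora and passenger genes, -0.37 for spindle assembly, -0.32 for the kinesins and -0.14 for mitotic exit. These came from 1 random draw with 10 kinesins, 4 Aurora and passenger genes and 3 exit genes past the filter. Under ethanol and Nutlin-3 it left 106 and 71 counts for cytokinesis and 94 and 80 for mitotic exit. No order of roles is read from them. The genes called lower were 3 of 12 kinesins, 2 of 5 Aurora and passenger genes, 2 of 12 spindle genes, 2 of 5 cytokinesis genes and 1 of 4 exit genes. RACGAP1 at -0.33 and KIF20A at -0.34 were just inside the limit, and TACC3 at -0.32 and KIF18A at -0.31 just outside.

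Among the kinesins, KIF23 had the lowest log2 ratio. KIF23 (ENSG00000137807, chromosome 15, 69414246 to 69448427 in GRCh38) is the motor subunit of centralspindlin, which bundles midzone microtubules. It had 174 counts with ethanol (95% Poisson interval 149 to 202) and 130 with Nutlin-3 (109 to 154), a log2 ratio of -0.37 (-0.71 to -0.04). KIF20A (ENSG00000112984, chromosome 5, 138178719 to 138187715) carries the passenger complex to the midzone. Its counts were 167 and 128 in the same order, a log2 ratio of -0.34 (-0.68 to 0.003). KIF15 (ENSG00000163808, chromosome 3, 44761717 to 44873376), a motor that helps to keep the spindle bipolar, had 109 and 82 counts and a log2 ratio of -0.36 (-0.80 to 0.06). KIF11, the main motor that drives the poles apart, had 189 and 149 counts and a log2 ratio of -0.30 (-0.62 to 0.02). The intervals of KIF20A, KIF15 and KIF11 included 0, and that of KIF23 did not, but in the large columns alone KIF23 stood at -0.14 (-0.51 to 0.24).

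The log2 ratios of the other 8 motors ran from -0.31 to 0.04, and each interval included 0. KIF18A, which damps chromosome movement at the metaphase plate, had 136 and 106 counts and stood at -0.31 (-0.69 to 0.06). KIFC1, which gathers microtubule minus ends, had 110 and 86 counts and also stood at -0.31 (-0.73 to 0.11). KIF18B had 155 and 128 counts, and KIF4A, a chromosome-bound motor that limits midzone length, 129 and 111. The depolymerase KIF2C had 144 and 125 counts, KIF14, a motor of the midbody, 166 and 144, and the chromosome motor KIF22 143 and 130. These 5 lay between -0.23 for KIF18B and -0.09 for KIF22. KIF20B (ENSG00000138182, chromosome 10, 89701610 to 89774939), a motor of late cytokinesis, had 154 and 153 counts and a log2 ratio of 0.04 (-0.30 to 0.37), which was -0.43 when scaled to ERCC counts and -0.61 when columns were thinned to 700 counts. ERCC totals depend on the unknown mix of ERCC dilutions in each pool, so that scale is uncertain.

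A list of 16 transport genes, kinesins of axons and organelles with their light chains and an adaptor, gave the same protein family outside mitosis. All 16 were in the table, and 15 got past the low-count filter. The median log2 ratio of these was 0.02 (order-statistic interval -0.10 to 0.10), with 5 genes below 0 and 10 above it, and 1 was called lower and 0 higher. For the 12 mitotic motors it was -0.26 (-0.34 to -0.16), with 11 below and 1 above. Scaled to ERCC counts, a scale left uncertain by the mixed dilutions, the transport list stood at -0.44 and the mitotic motors at -0.73. This scaling moved the median of all genes to -0.47. KIF5B, the common motor of kinesin-1, had 198 counts under ethanol and 195 under Nutlin-3. The 2 highest log2 ratios were 0.17 (-0.38 to 0.73) for KLC2, a light chain, and 0.13 (-0.24 to 0.49) for KIF3A of kinesin-2. The 2 lowest were -0.79 (-1.41 to -0.20) for KIF16B, a motor of endosomes, from 68 and 38 counts, and -0.23 (-0.54 to 0.08) for KIF21A. The difference between the lists was not tested.

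**Figure D3:**
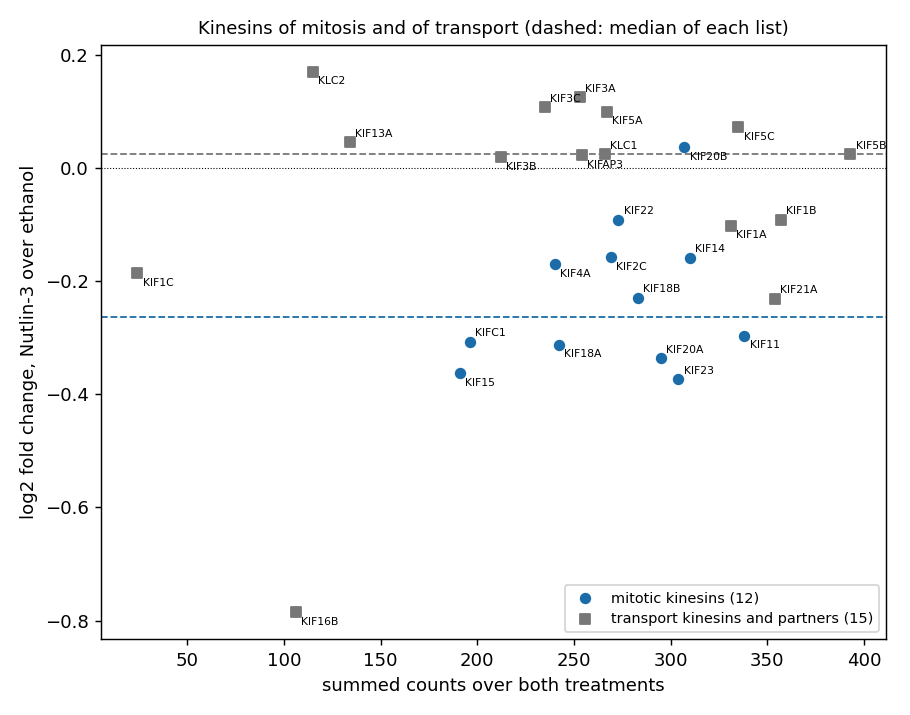
Log2 ratio of Nutlin-3 to ethanol against the summed counts of both treatments for the 12 mitotic kinesins (blue circles) and 15 transport kinesins and partners (grey squares). Dashed lines are the medians, -0.26 and 0.02. KIF20B lies among the transport kinesins, and KIF16B, from 68 and 38 counts, lies below every mitotic motor.

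In the passenger complex the log2 ratios were spread widely. INCENP (ENSG00000149503, chromosome 11, 62123973 to 62153163) is the scaffold that binds and activates Aurora B. It had 64 counts under ethanol (49.3 to 81.7) and 32 under Nutlin-3 (21.9 to 45.2). Its log2 ratio of -0.94 (-1.61 to -0.32) was the lowest of the 40 genes and the only one past 1.5-fold, and it had the smallest counts of the 40. AURKB (ENSG00000178999, chromosome 17, 8204733 to 8210600), the kinase of the complex, had 190 counts (164 to 219) and 138 (116 to 163), a log2 ratio of -0.41 (-0.74 to -0.09). In the large columns alone INCENP stood at -0.90 (-1.59 to -0.26), whereas AURKB stood at -0.27 (-0.63 to 0.08) and was no longer called lower. INCENP thus lay below 0 over its whole interval with and without the small columns, and AURKB only with them.

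The remaining subunits and the pole kinase lay nearer to 0. BIRC5, which brings the complex to centromeres, had 188 and 158 counts and a log2 ratio of -0.20 (-0.52 to 0.11). CDCA8, which binds BIRC5 and INCENP, had 168 and 148 counts and a log2 ratio of -0.14 (-0.47 to 0.19). AURKA, the kinase of the poles, had 153 and 132 counts and stood at -0.17 (-0.51 to 0.18). Its activator TPX2 had 159 and 148 counts and stood at -0.06 (-0.39 to 0.27). The intervals of BIRC5, CDCA8, AURKA and TPX2 all included 0 and overlapped those of INCENP and AURKB, so no order is read among the 6.

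Among the spindle proteins, NUSAP1 (ENSG00000137804, chromosome 15, 41332694 to 41381050), which bundles microtubules near chromosomes, had 239 counts with ethanol (210 to 271) and 159 with Nutlin-3 (135 to 186). Its log2 ratio was -0.54 (-0.84 to -0.25), the next lowest after INCENP. CKAP2L (ENSG00000169607, chromosome 2, 112736607 to 112764677), a protein of the spindle, had 123 (102 to 147) and 84 (67 to 104) counts and a log2 ratio of -0.50 (-0.92 to -0.09). Of the 12 genes of spindle assembly, NUSAP1 and CKAP2L had intervals wholly below 0 and the other 10 did not. TACC3, which crosslinks the microtubules of kinetochore fibres, had 148 and 115 counts and stood at -0.32 (-0.68 to 0.04). Its partner CKAP5, a microtubule polymerase, had 205 and 166 counts and stood at -0.26 (-0.56 to 0.04). ASPM, which focuses the poles, had 238 and 201 counts and stood at -0.20 (-0.48 to 0.08). The other genes of this role were the centrosome kinase NEK2, CKAP2, SPAG5, KNSTRN, DLGAP5 and HMMR, which bind spindle microtubules or kinetochores. They had 139 to 169 counts under ethanol and 115 to 144 under Nutlin-3, and log2 ratios from -0.23 for NEK2 to -0.06 for HMMR.

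The promoters of NUSAP1 and CKAP2L, the 2 lowest genes with at least 100 summed counts, and of KIF20B, the highest, are printed because repression in the cell cycle is known to act through short promoter elements. RefSeq (GRCh38.p14) gave at least 1 promoter for 35 of the 40 genes, and the 250 bases before each start site were searched on both strands. The motifs were the cell cycle homology region (TTTGAA), the CCAAT box bound by NF-Y (CCAAT), an E2F site (TTTGGCGC or TTTCGCGC) and the GC box (GGGCGG), and none of these strings contains another. Capitals mark matches to the first 3. The start sites are those of RefSeq. For NUSAP1 and CKAP2L this start lies inside the gene at the position given above, from GENCODE 29, and so does part of the 250 bases. The windows are chr15:41332631-41332880 on the plus strand for NUSAP1, chr2:112764610-112764859 on the minus strand for CKAP2L and chr10:89701340-89701589 on the plus strand for KIF20B, each written 5′ to 3′.
NUSAP1: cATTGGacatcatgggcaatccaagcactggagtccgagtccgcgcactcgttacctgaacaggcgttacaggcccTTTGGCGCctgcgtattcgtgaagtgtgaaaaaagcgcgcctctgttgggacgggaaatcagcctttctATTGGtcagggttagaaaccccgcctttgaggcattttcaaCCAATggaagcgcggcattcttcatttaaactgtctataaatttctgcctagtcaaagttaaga
CKAP2L: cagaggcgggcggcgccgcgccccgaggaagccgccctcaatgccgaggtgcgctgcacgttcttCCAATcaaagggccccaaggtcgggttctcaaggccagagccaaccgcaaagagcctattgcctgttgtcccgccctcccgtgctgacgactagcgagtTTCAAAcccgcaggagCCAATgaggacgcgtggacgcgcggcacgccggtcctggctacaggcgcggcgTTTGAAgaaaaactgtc
KIF20B: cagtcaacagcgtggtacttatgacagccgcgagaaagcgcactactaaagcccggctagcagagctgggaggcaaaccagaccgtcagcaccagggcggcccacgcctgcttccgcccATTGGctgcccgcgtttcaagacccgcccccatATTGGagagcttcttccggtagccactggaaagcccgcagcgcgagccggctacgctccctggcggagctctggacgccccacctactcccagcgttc

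All 3 promoters held CCAAT boxes in either direction, those of NUSAP1 and CKAP2L at log2 ratios of -0.54 and -0.50 and that of KIF20B at 0.04. CKAP2L held 2 matches to TTTGAA or its reverse complement, the nearer one 17 to 12 bases before the RefSeq start. NUSAP1 held no such match in this window and 1 E2F site, and KIF20B held neither. Over the 35 genes, 54.3% held TTTGAA, against 16.1% of 27305 gene symbols with a promoter of the same length and 12.1% of the 10190 that passed the count filter. A gene with more than 1 promoter was counted when any of them matched. A CCAAT box was held by 80.0%, against 37.0% and 42.2%, and both motifs by 48.6%, against 6.86% and 6.59%. A GC box was held by 82.9%, against 46.2% and 74.8%. The E2F letters were found for 2 of the 35 genes, NUSAP1 and KIF15, or 5.71%, against 1.20% and 2.08%. Within the 35 genes the median log2 ratio was -0.26 for the 19 with TTTGAA and -0.23 for the others, and a match is not a shown binding site.

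Of the cytokinesis genes, PRC1 (ENSG00000198901, chromosome 15, 90966038 to 90995629), which crosslinks antiparallel midzone microtubules, had 246 counts with ethanol (216 to 279) and 175 with Nutlin-3 (150 to 203). Its log2 ratio was -0.44 (-0.73 to -0.16), and it was the one gene of the 5 whose interval left out 0. In the large columns alone it stood at -0.28 (-0.61 to 0.04) and was not called. RACGAP1, which forms centralspindlin with KIF23, had 175 and 135 counts and a log2 ratio of -0.33 (-0.66 to 0.004). ECT2, the exchange factor that centralspindlin recruits to activate RhoA, had 160 and 127 counts and stood at -0.29 (-0.63 to 0.06). The scaffold of the contractile ring, ANLN, had 154 and 137 counts and stood at -0.12 (-0.47 to 0.22). CIT, the citron kinase of the midbody, had 121 and 106 counts and stood at -0.14 (-0.53 to 0.24). The intervals of all 5 genes overlapped one another.

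UBE2C (ENSG00000175063, chromosome 20, 45812576 to 45816957) starts the ubiquitin chains that the anaphase-promoting complex builds. Counts of UBE2C were 299 under ethanol and 229 under Nutlin-3, a log2 ratio of -0.34 (-0.59 to -0.09). UBE2S, which extends these chains, had 111 and 94 counts and stood at -0.19 (-0.61 to 0.22). PTTG1, the securin that holds separase inactive, had 224 and 178 counts and stood at -0.28 (-0.58 to 0.005), and ESPL1, separase itself, had 135 and 118 and stood at -0.15 (-0.52 to 0.22). MKI67, which coats mitotic chromosomes, had 178 and 141 counts and stood at -0.29 (-0.62 to 0.04). GTSE1, a microtubule protein that also restrains p53, had 133 and 112 counts and stood at -0.20 (-0.58 to 0.17). Of these 6 genes the interval of UBE2C alone lay wholly below 0, and it included 0 in each class of columns, at -0.28 (-0.59 to 0.02) in the large and -0.40 (-0.89 to 0.08) in the small ones.

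The other lists of spindle and division genes had medians nearer to 0 over all columns, a difference that was not tested. Of the 16 genes of the anaphase-promoting complex and its activators, 8 were below 0 and 8 above it, with a median of -0.01 and a range of -0.27 for ANAPC10 to 0.26 for ANAPC1. The activator CDC20 stood at -0.20 (-0.52 to 0.12) and the subunit ANAPC2 at 0.22 (-0.52 to 0.97). Augmin and the gamma-tubulin complex nucleate spindle microtubules. Their list of 16 genes, which also held NUMA1, a gene of neither, had a median of -0.10, with 12 below 0. Of these, 2 were called lower, HAUS8 at -0.52 (-0.94 to -0.11), from 123 and 83 counts, and NEDD1 at -0.39 (-0.84 to 0.05), while NUMA1 stood at 0.10 and TUBGCP4 at 0.09. The 14 genes of the contractile ring and of abscission had a median of -0.06, with 10 below 0. Among them CEP55, an abscission factor, was lowest at -0.31 (-0.67 to 0.05), followed by ARHGAP11A at -0.19, and SPAST and VPS4A were highest at 0.08 each. The 10 other spindle partners, among them CKAP4, which shares only the name, had a median of -0.14, with 8 below 0, from -0.25 for MAPRE1 and -0.23 for NUDC to 0.16 for RAE1 and 0.19 for CLASP2. In the large columns alone these partners had a median of -0.12, close to the -0.14 of the 40 genes. HAUS8 and NEDD1 were the 2 genes called lower in these 4 lists, and 0 were called higher, beside 12.4% and 14.9% of all genes tested.

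The number of large columns per treatment in which a gene was seen cannot pass 113. Of the 4520 values of the 40 genes in the 113 large columns, 80.4% were equal to 1 for ethanol and 82.6% for Nutlin-3. Values of 0 made up 2.85% for ethanol and 8.54% for Nutlin-3. A value of 2 occurred 645 times for ethanol and 361 times for Nutlin-3, and a value of 3 or more 114 and 40 times. Under ethanol 18 of the 40 genes were seen in every large column, and under Nutlin-3 8 were. Of the 18, 7 were seen in every Nutlin-3 column too, and of all 1469 genes seen in every large ethanol column 57.7% were. The 1469 genes were not matched to the 18 by count, and a gene with more counts is less likely to miss a column. No difference is read from these shares. Seen in fewer Nutlin-3 than ethanol columns were 32 of the 40 genes, with 7 equal and 1, KNSTRN, seen in more. Of all 14759 genes that passed the filter in the large columns, 53.8% were seen in fewer Nutlin-3 columns.

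For genes seen in every large ethanol column, this limit leaves no room for a rise under Nutlin-3 but does leave room for a fall. INCENP was seen in 58 large ethanol columns and 30 large Nutlin-3 columns. CKAP2L was seen in 108 and 76, KIF15 in 99 and 73, KIFC1 in 103 and 82, CIT in 108 and 92, KIF18A in 111 and 97, and UBE2S in 101 and 89. All 13 of the genes seen in 20 to 214 of the 226 large columns were seen in fewer Nutlin-3 columns, as were 56.3% of the 10961 genes in that range. The median difference, Nutlin-3 minus ethanol, was -12 columns for the 13 genes and -2 for all genes in the range. Of the 6 transport kinesins in the range, 2 were seen in fewer Nutlin-3 columns, 2 in equally many and 2 in more. The range was set after the data had been seen, and on the columns of both treatments together. A gene seen in nearly every large ethanol column could thus enter it only when seen in fewer Nutlin-3 columns. For such genes, among them KIF18A and CKAP2L, the direction was fixed in advance. No difference from other genes is read from these numbers.

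**Figure D4:**
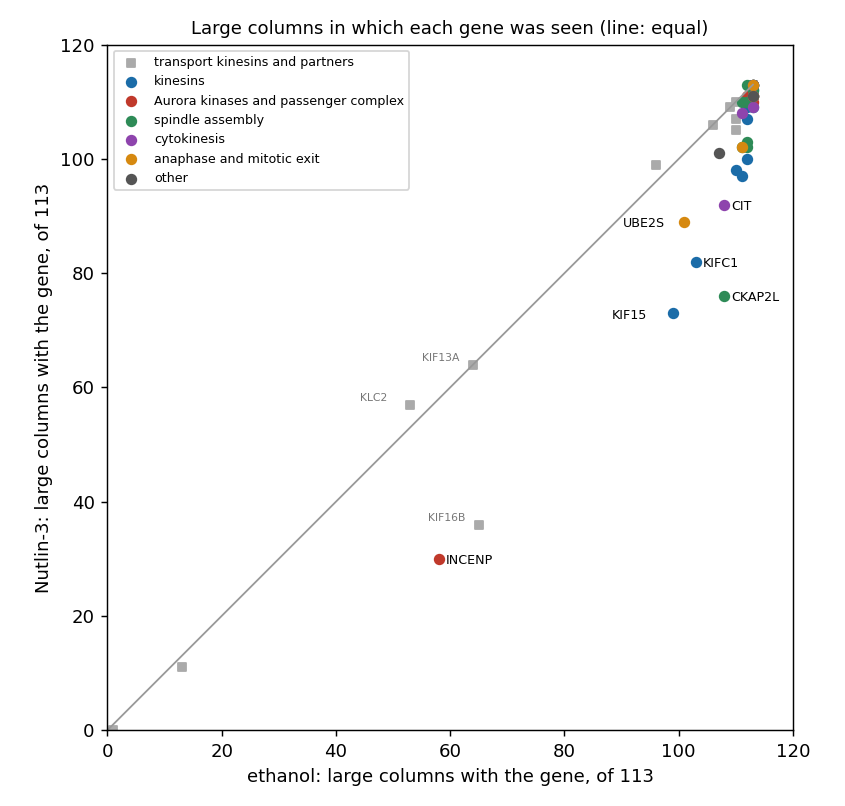
Number of the 113 large columns in which each gene was seen with ethanol and with Nutlin-3, for the 40 genes by role and for transport kinesins and partners (grey squares). Most of the 40 genes crowd at the upper limit, and INCENP, CKAP2L, KIF15 and KIFC1 lie farthest below the line of equal values among them.

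Large and small columns gave different sizes of difference. In the large columns the median log2 ratio of the 40 genes was -0.14, with 39 below 0, as were 7377 of all 14759 genes that passed the filter there. There 3 of the 40, INCENP, CKAP2L and KIF15, were called lower, against 11.9%, and 0 higher, against 14.3%. In the small columns 35 of the 40 genes passed the filter, with a median of -0.69 and 32 below 0, where 48.0% of 4762 genes were. There 25 were called lower, against 26.6%, and 1, KIF22, higher, against 27.9%. The median of all genes was 0.00 in the large and 0.02 in the small columns. The 40 genes held 0.445% of human counts under ethanol (0.433 to 0.457) and 0.395% under Nutlin-3 (0.383 to 0.406) in the large columns, and 0.802% (0.757 to 0.848) and 0.515% (0.478 to 0.553) in the small ones. Both pairs of intervals were apart. The small columns had median totals of 871 counts for ethanol and 830 for Nutlin-3, and the large ones 10763 and 10647. Columns with enough counts were thinned to 700, all large ones but only 81 ethanol and 74 Nutlin-3 small ones. The mean count of the 40 genes per column was then 2.91 under ethanol and 2.75 under Nutlin-3 in the large columns. In the small columns kept it was 5.8 and 3.7. Thinning cannot undo the values of the large columns, which were mostly equal to 1. The part of depth in the difference between the classes was therefore not tested.

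**Figure D5:**
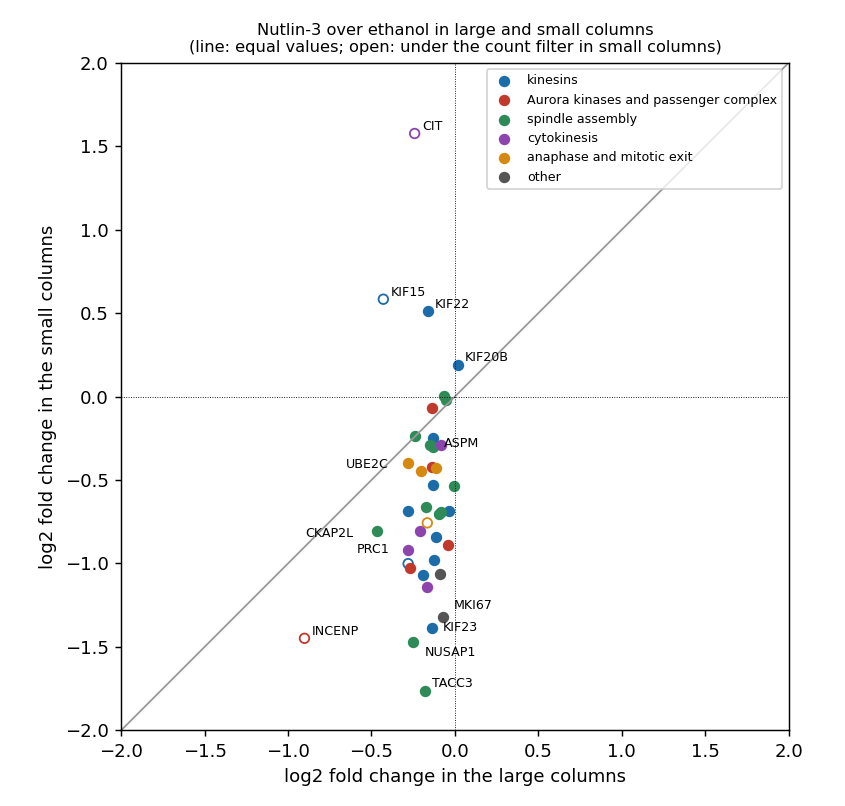
Log2 ratio of Nutlin-3 to ethanol in the small columns against that in the large columns, coloured by role, with open points for the 5 genes under the count filter in the small columns. The line marks equal values, and 32 of the 40 genes lie below it.

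In the small columns NUSAP1 had 74 counts with ethanol and 24 with Nutlin-3, a log2 ratio of -1.47 (-2.22 to -0.81), and in the large ones 165 and 135, a log2 ratio of -0.25 (-0.59 to 0.09). TACC3 had 20 and 5 counts in the small columns and stood at -1.76 (-3.63 to -0.41), and KIF23 had 44 and 15 and stood at -1.39 (-2.37 to -0.54). In the large columns these 2 stood at -0.18 and -0.14. NUSAP1, TACC3 and KIF23 thus lay farther from 0 in the small columns. Intervals lay wholly below 0 there for 9 of the 35 genes, a number with no share of all genes beside it. Beside these 3 they were MKI67 with 42 and 15 counts at -1.32 (-2.31 to -0.47), ECT2 with 25 and 10 at -1.14 (-2.41 to -0.08), KIF20A with 33 and 14 at -1.07 (-2.12 to -0.16), AURKB with 41 and 18 at -1.03 (-1.94 to -0.22), KIF11 with 44 and 20 at -0.98 (-1.84 to -0.21) and PRC1 with 67 and 32 at -0.92 (-1.59 to -0.30). TPX2 with 29 and 26 counts, HMMR with 22 and 20 and CDCA8 with 30 and 26 lay between -0.07 and 0.00. More counts under Nutlin-3 were found for KIF22 with 13 and 17, KIF20B with 26 and 27, and, under the filter, KIF15 with 5 and 7 and CIT with 3 and 9. TPX2 and HMMR were near 0 in both classes of columns, at -0.05 and -0.06 in the large ones.

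Per column, the number of the 40 genes seen together also differed. Large ethanol columns showed 29 to 40 of the genes, 39 at the median, and large Nutlin-3 columns 18 to 40, 37 at the median. Their summed counts were 35 at the lowest, 46 at the median and 77 at the highest under ethanol, and 28, 41 and 54 under Nutlin-3, so the ranges overlapped widely. Among the 113 names of large columns present in both treatments, the 40 genes held a smaller share of human counts under Nutlin-3 for 97 names and a larger one for 16. These columns are parts of 1 pool per treatment and not replicates, and a shared name does not make them a pair. No like tally for other genes stands beside these numbers. All human counts were lower under Nutlin-3 for 68 of these names. At a common depth of 700 counts, with 56 ethanol and 63 Nutlin-3 columns too shallow, a column held 0 to 12 counts of the 40 genes for ethanol, 4 at the median, and 0 to 9 for Nutlin-3, 3 at the median. Large columns at this depth held 3 at the median in both treatments, and small ones 6 and 3.5, so the medians differed in the small columns and not in the large ones. At least 1 count was seen in 96.9% of 194 ethanol columns (93.4 to 98.9) and 95.2% of 187 Nutlin-3 columns (91.1 to 97.8), and without thinning in 98.8% and 96.8% of 250. What free RNA adds to these shares could not be measured, since every column came from the same line.

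Reads of some genes may be shared with their neighbours or copies. Another annotated gene with at least 10 counts overlapped 12 of the 40 genes, for 10 of them on the opposite strand, and the sources used here do not say whether counting used the strand. Summed over both treatments, RPL28 had 512 counts against 205 for UBE2S, BRD8 and CDC23 had 245 and 248 against 295 for KIF20A, and PDZD11 had 244 against 240 for KIF4A. Copies of PTTG1 had few counts, 25 and 16 for PTTG2 and 38 and 25 for PTTG3P under ethanol and Nutlin-3, and KIF4B, the copy of KIF4A, had 3 and 2. UBE2CP4, a near copy of UBE2C, had 21 and 11. Over both treatments PRC1-AS1 had 57 counts against 421 for PRC1, METTL15 115 against 242 for KIF18A, and KIAA0895 122 against 291 for ANLN. The values of these genes, and of the others overlapped, are uncertain to that extent.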

How the data were processed

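Per the labels' protocols, polyadenylated RNA of NGP cells was made into 3' libraries with the SureCell WTA kit on the ddSeq device. The deposited table holds raw whole-number counts per gene and column, unnormalized by the authors as far as its values show. The aligner, tag handling, genome build, annotation and cell filter were not given in the sources used here. All 500 columns were used. No doublet caller was run, since a column could not be taken as 1 cell, and nothing says whether doublets had been removed. The word after the 12 bases of a name gave the treatment, and treated was read as Nutlin-3. Totals per column ran from 306 to 13502 in ethanol and from 253 to 13501 in Nutlin-3.

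Counts were summed per treatment without ERCC species, filtered with edgeR 4.0.16 (minimum count 10; 14830 genes kept) and scaled with TMM in R 4.3.3. The log2 fold change used 0.5 added counts, and its 95% interval is exact binomial. The calculation was tested on sums simulated from a Poisson model, which cannot show whether the intervals fit the counts of these columns. The design called for edgeR's quasi-likelihood test on 4 libraries, which could not be told apart, so no test was run. Genes were called by size alone, past 0.32 on the log2 scale. Columns were thinned without replacement. Symbols came from the identifiers and positions from GENCODE 29 on GRCh38, which need not be the authors' build.

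The 40 genes, their roles and the comparison lists were chosen with earlier results of these data known. All 40 are named. Of each comparison list the 2 lowest and 2 highest with at least 50 summed counts are named, and KIF5B was added after its values were seen. Alternatives were DESeq2 1.42.0 size factors, total or ERCC scaling, no filter, other added counts, large or small columns, names in 1 treatment, and thinning.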

Additional observations from a re-analysis of the deposited data

How the results depend on the processing

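No paired analysis was possible because no column could be traced to its library, and for the same reason leaving out each library, a replicate block and the DESeq2 test were not run. DESeq2 size factors, total counts and no filter left the median of the 40 genes between -0.23 and -0.22 and 10 genes called lower, past 0.32 on the log2 scale. Restricting to the large columns gave a median of -0.14 (kinesins -0.13, Aurora and passenger genes -0.14) and 3 genes, small columns -0.69 (kinesins -0.69, Aurora and passenger genes -0.66, spindle assembly -0.60, cytokinesis -0.86, mitotic exit -0.43) and 25 genes of 35. Thinning to 700 counts gave -0.41 (Aurora and passenger genes -0.66, spindle assembly -0.37, cytokinesis -0.70, mitotic exit -0.14) and 19 genes of 36. ERCC counts as library size moved the median of all genes to -0.47 and gave -0.69 (kinesins -0.73, Aurora and passenger genes -0.67, spindle assembly -0.68, cytokinesis -0.75, mitotic exit -0.71) and 40 genes, where 73.6% of all genes passed, and turned the median of transport kinesins to -0.44. At 1.5-fold 1 gene was left. In an alternative added after the data were seen, the 13 genes seen in 20 to 214 of the 226 large columns had a median of -0.17. That range in part selects genes seen in fewer Nutlin-3 columns. The cause of these moves was not tested, apart from ERCC scaling, which subtracts a constant. That constant depends on the unknown mix of ERCC dilutions in each pool, so ERCC totals are an uncertain measure of library size.

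The share of counts in ethanol and Nutlin-3 was 0.445% and 0.395% in large columns, 0.802% and 0.515% in small ones, 0.783% and 0.585% without shared names, and 0.588% and 0.447% after thinning. Columns with a count of the 40 genes made up 88.0% and 81.0% at 350 counts, and 100% and 98.6% of small columns at 700. Of 351 values of single genes under these alternatives, 276 stayed within the counting interval, 75 left it and 10 changed sign, none (0) of them for a gene whose interval lay wholly on 1 side of 0. Of the 10, 7 came from thinning. Too few counts were left without shared names for folds per gene. Intervals of all but 7 of the 40 genes included 0. They treat counts as independent, while most values in large columns were equal to 1. What was detectable at this depth is therefore uncertain.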
